A study of Homo sapiens and Homo sapiens
Mus musculus and Mus musculus with 200 samples.

Results

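TWIST1(L138F) and TWIST1(L138Y) are versions of the transcription factor TWIST1 in which 1 leucine of the basic helix-loop-helix domain is replaced by phenylalanine or by tyrosine, amino acids that differ by a hydroxyl group on the ring. Each was expressed with a V5 tag from a pcDNA3.1 plasmid in HEK293, a human embryonic kidney cell line, alone or together with ALX4-Flag from a second pcDNA3.1 plasmid, and the cells were harvested 24 h after transfection. ChIP-seq with a V5 antibody gave 1 peak list for each of the 4 combinations, 4 of the 200 samples of the series. The reference was TWIST1(WT), the unaltered protein with the same tag, plasmids, cells and time, in 3 replicates without and 3 with ALX4-Flag. Samples were assigned by these labels, and the substitutions were chosen with earlier results of these data known. All proteins were transiently overexpressed, and the amounts of TWIST1 and ALX4 protein were not measured in the files used here. Nothing in the labels states that the replicates of TWIST1(WT) came from separate cultures, so p-values over them measure the spread between these libraries only. Since each L138F and L138Y condition had 1 library, its comparisons have no replicate check, and intervals on its shares (95%, Wilson) cover counting error only.

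TWIST1 is a basic helix-loop-helix factor that binds E-boxes as a dimer, usually with an E-protein such as TCF3, TCF4 or TCF12, and it is needed for the formation of cranial neural crest mesenchyme, from which most of the face arises. ALX4 is a homeodomain factor of the same mesenchyme, and homeodomains bind short AT-rich sites. In cranial neural crest cells many TWIST1 sites hold both elements at a fixed distance, an arrangement known as the Coordinator motif. A separate arrangement, a pair of E-boxes at a fixed distance (the double E-box), is also known for TWIST1.

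E-boxes, homeodomain sites and 2 arrangements of them were searched in the 100 bp to either side of each peak summit, on both strands. The E-box was CATATG or CAGCTG, which read the same on both strands, or CATCTG, whose reverse complement is CAGATG. The homeodomain site was TAATTA or its variant TAATTG, whose reverse complement is CAATTA. The composite motif was an E-box, a gap of 4 bp and a homeodomain site, and the double E-box was a pair of E-boxes with a gap of 5 bp, so both hold matches to the E-box as well. A match is a description of the letters present. The sequences below were chosen for holding the composite motif, to show its letters: they come from the 10 highest-ranked peaks by −log10 p among those with the motif that both substitutions had with ALX4 and not without it. Most of the peaks so gained did not hold the motif (331 of 8792 did). Capitals mark the E-box and the homeodomain site, and each sequence is written 5′ to 3′ in the direction E-box to homeodomain site, from hg38. The sequence of the DOK6 site, which ranked behind the SOX9 site, is not printed.
SOX9 site, chr17:72376653-72376682, minus strand: ccgaaccCATCTGctgtCAATTAgtctaaa
POP4 site, chr19:29603456-29603485, plus strand: ctagcgcCAGCTGtggcCAATTActttaga
MAP3K7 site, chr6:91183975-91184004, minus strand: ctggcgcCAGCTGtgacCAATTAttacttt
SMIM36 site, chr17:55589140-55589169, plus strand: aggccaaCAGCTGggttTAATTAgtatgct
SDK1 site, chr7:3212789-3212818, minus strand: ccggcacCAGCTGtgacCAATTAttacttt
DNMT3A site, chr2:25368804-25368833, minus strand: tgtgcctCAGCTGttttCAATTAaacccct
SLC5A6 site, chr2:27215202-27215231, plus strand: ctgaacaCAGCTGtgttCAATTAttagctg
WT1 site, chr11:32309975-32310004, minus strand: cggacagCATCTGagtcTAATTAcctaggt
NTN1 site, chr17:9217285-9217314, plus strand: ccaccacCATCTGccttTAATTActagaga

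The sites are named by the protein-coding gene with the nearest start, which is a position and not a target. The highest-ranked of the 10 lay in an intron of LINC00511, 255614 bp downstream of the start of SOX9, a regulator of cartilage and neural crest development. Its peak (chr17:72376052-72377245) was absent from both substitution lists without ALX4. With ALX4 its deposited fold enrichment was 51.3 in L138F and 40.6 in L138Y, values from the authors' peak caller that rank peaks only within 1 list. In both lists it lay above the 99.7th percentile of −log10 p. The same peak was absent from all 3 TWIST1(WT) lists without ALX4 and present in all 3 with it, at a fold enrichment of 19.5, 28.8 and 27.3. The SOX9 site was thus a strong site of these 5 lists with ALX4 and of none of the 5 without it.

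All 10 of these sites were also peaks in each of the 3 TWIST1(WT) lists with ALX4, and all 10 overlapped a TWIST1 site of cultured human cranial neural crest cells (hCNCC). They lay at or above the 98.8th percentile of the L138F list and the 98.6th percentile of the L138Y list. The sites were chosen by rank in these 2 lists, so high percentiles there follow from the choice. In TWIST1(WT) with ALX4 they lay between the 93.0th and the 99.7th percentile in replicate 1. The ranges were 96.5 to 99.7 in replicate 2 and 97.1 to 99.7 in replicate 3. Without ALX4, the DOK6 site was a peak in TWIST1(WT) replicate 3, the SMIM36 site in replicate 1, and the NTN1 site in replicates 1 and 3. NTN1 encodes netrin-1, a guidance cue, and WT1 is a transcription factor of the developing kidney. The MAP3K7 and SDK1 sites lie on different chromosomes and shared 28 of 30 letters, against a median of 17 over the 45 pairs of these windows. Such near-copies bear on how uniquely reads can be placed, which was not tested.

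The lists held 45391 peaks for L138F without ALX4 and 47397 with it, and 46568 and 36276 peaks for L138Y. TWIST1(WT) without ALX4 gave 30471, 22465 and 56014 peaks in replicates 1, 2 and 3, and 29430, 41369 and 65005 with it. A V5 ChIP from cells given pUC19, a plasmid with no V5 protein, gave 463 peaks, and between 0.314% and 0.863% of the peaks of the 10 lists overlapped one. Library depths are unknown from peak lists, and list length differed by more between replicates of TWIST1(WT) than between the substitutions. Values are therefore also given for the 10000 peaks of highest −log10 p in each list.

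With ALX4, both substitutions had a larger share of peaks with the composite motif than any TWIST1(WT) library. In L138F, 87 peaks (0.192%, interval 0.155 to 0.236) held it without ALX4 and 679 (1.43%, 1.33 to 1.54) with ALX4. In L138Y these were 53 peaks (0.114%, 0.0870 to 0.149) and 490 peaks (1.35%, 1.24 to 1.47). The shares of TWIST1(WT) were 0.190%, 0.178% and 0.152% without ALX4 and 0.860%, 1.02% and 0.758% with it. All 5 lists with ALX4 lay above all 5 without it, and the L138F and L138Y lists with ALX4 lay above the 3 of TWIST1(WT).

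The difference with minus without ALX4 was 1.24 percentage points in L138F (interval 1.13 to 1.36) and 1.24 in L138Y (1.12 to 1.36). In TWIST1(WT) it was 0.669, 0.842 and 0.607 points between lists of the same replicate number. These numbers did not pair the lists, and over all 9 pairs of a list with and a list without ALX4 it ranged from 0.568 to 0.868 points, below both substitutions. The means were 0.533 points apart (exact two-sided permutation test of 2 against 3 values, p = 0.20, the smallest this design allows, 0.42 after Benjamini-Hochberg adjustment over 42 comparisons). L138F and L138Y are 2 proteins and not replicates, so that p describes only whether the pair stood outside the range of TWIST1(WT). Within TWIST1(WT) the share with ALX4 exceeded that without by 0.706 ± 0.122 points (SD of the 3 differences), with an exact two-sided permutation p of 0.10, again the smallest possible for 3 against 3.

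Among the 10000 strongest peaks the composite share with ALX4 was 3.25% in L138F and 2.74% in L138Y. In TWIST1(WT) it was 1.66%, 2.04% and 1.53%. L138F without ALX4 had 0.290% and L138Y 0.20%, inside or below the TWIST1(WT) values of 0.240% to 0.350%. The separation from TWIST1(WT) was thus seen in the lists with ALX4 and not in the lists without it. In 9 other TWIST1 variants of the series with at least 10000 peaks with ALX4, named for NEUROD1, NEUROG2, TAL1 or HAND2, this share ranged from 0.120% to 0.480%. The NEUROD1 loop and NEUROD1L variants had fewer peaks with ALX4 (9190 and 8559). Over all of those peaks the share was 0.229% and 0.631%.

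**Figure D1:**
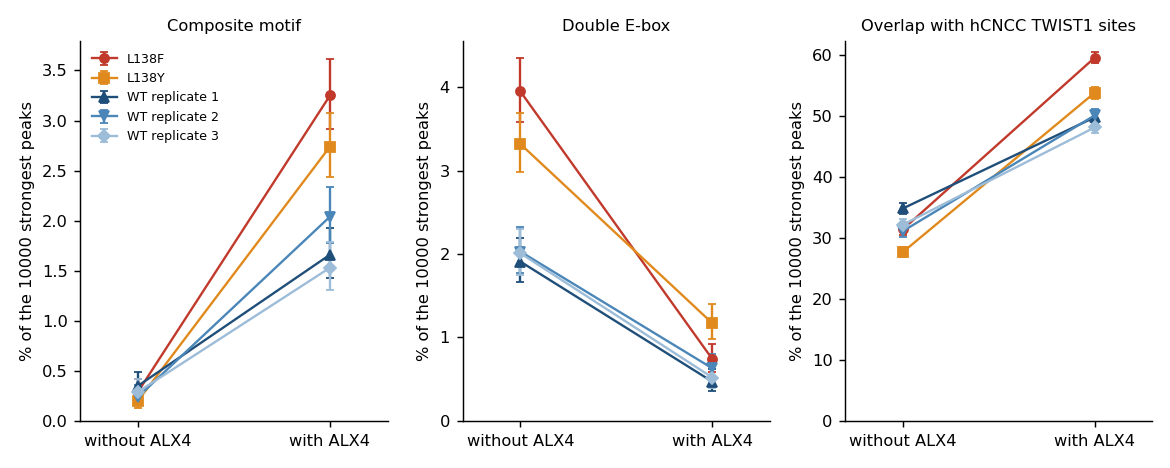
Shares of the 10000 strongest V5 peaks of each list (y axes, %) with the composite motif, with the double E-box and with an overlap with hCNCC TWIST1 sites, without and with ALX4. Lines join a protein's lists, for TWIST1(WT) by replicate number, which did not pair them, and bars are 95% Wilson intervals. L138F and L138Y end above the 3 TWIST1(WT) replicates for the composite motif (3.25% and 2.74%) and start above them for the double E-box (3.95% and 3.32%).

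The double E-box was also more frequent in both substitutions than in TWIST1(WT), without and with ALX4. L138F had 760 such peaks (1.67%, interval 1.56 to 1.80) and L138Y 701 (1.51%, 1.40 to 1.62), against 0.968%, 1.20% and 0.930% in TWIST1(WT). With ALX4 the shares were 0.418% in L138F and 0.631% in L138Y, against 0.251%, 0.302% and 0.285%. The means of substitutions and TWIST1(WT) were 1.59% and 1.03% without ALX4, and 0.525% and 0.279% with it. All 5 lists with ALX4 had a lower double E-box share than all 5 without it. With ALX4, the 11 other TWIST1 variants of the series had 0.483% to 1.25%, so L138F lay below them, L138Y lay inside their range, and all of them lay above TWIST1(WT). Among the 10000 strongest peaks without ALX4, L138F had 3.95% and L138Y 3.32%, against 1.91% to 2.03% in TWIST1(WT) and 0.560% to 1.72% in the 11 other variants. With ALX4 it was 0.740% in L138F and 1.17% in L138Y, inside the 0.710% to 1.73% of the 9 other variants with that many peaks. The exact permutation p for each of these differences from TWIST1(WT) was 0.20 (adjusted 0.42).

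Sequences of 2 peaks that both substitutions had without ALX4 and lacked with it show this second arrangement, with the E-boxes in capitals (hg38, plus strand). They were picked for holding it from the 4 best ranked such peaks, not all of which did. Most peaks lost in both substitutions did not hold it.
LYST site, chr1:235820257-235820285: cacaggCAGATGggcacCAGATGgctagg
GADD45G site, chr9:89878975-89879003: ctggagCAGCTGggagcCAGCTGgggcca
The LYST site lay in an intron of LYST, a gene of lysosomal trafficking. Its fold enrichment without ALX4 was 21.3 in L138F and 9.76 in L138Y, above the 98.7th percentile of either list. The GADD45G site lay 273954 bp downstream of the start of that stress-response gene, at 23.3 in L138F and 17.1 in L138Y. In TWIST1(WT) the LYST site was a peak without ALX4 in replicates 2 and 3 and the GADD45G site in all 3 replicates, and neither was a peak with ALX4 in any replicate.

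The distance between the elements was examined by counting E-box and homeodomain site pairs at each gap from 0 to 20 bp, relative to windows of the same length 1000 bp to either side of the summit. With ALX4, the gap of 4 bp was enriched 33.9-fold in L138F and 24.5-fold in L138Y. The flanking windows held this pair in only 0.0422% and 0.0551% of cases. Such ratios thus rest on few flank matches, and differences in them between lists were not tested. The other 20 gaps ranged from 1.48-fold to 4.62-fold in L138F and from 1.27-fold to 4.74-fold in L138Y. TWIST1(WT) reached 20.2, 22.8 and 16.2-fold at the gap of 4 bp. The preferred spacing was the same in the substitutions and in TWIST1(WT), and no second gap stood out in either.

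For pairs of E-boxes without ALX4 the gap of 5 bp was enriched 32.3-fold in L138F and 35.9-fold in L138Y, against 29.5, 20.7 and 17.4-fold in TWIST1(WT). The flank matches were again few, at 0.0518% of flanking windows in L138F and 0.0419% in L138Y. The next highest gap in both substitutions was 4 bp, at 11.9-fold and 10.4-fold, where TWIST1(WT) lay between 5.37 and 6.08-fold. With ALX4 the gap of 5 bp remained the highest, at 10.2-fold in L138F and 13.5-fold in L138Y.

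**Figure D2:**
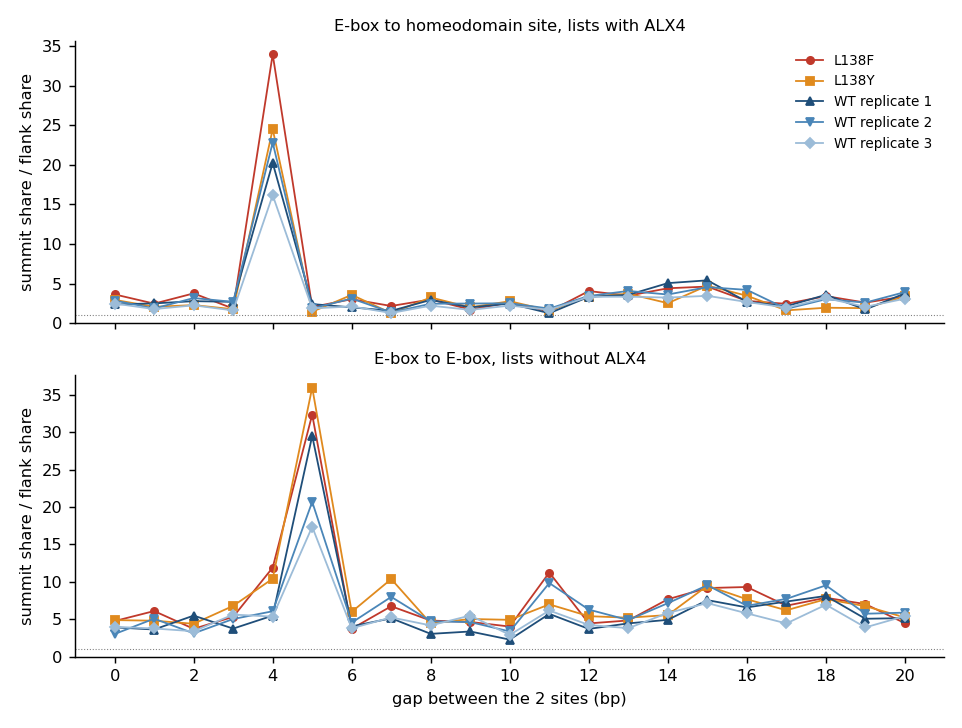
Enrichment of pairs of sites in summit windows over flanking windows (y axis, ratio of shares) by the gap between the sites in bp (x axis). The upper panel counts E-box to homeodomain site pairs in the lists with ALX4, the lower panel E-box pairs in the lists without ALX4, with 1 line per library and a dotted line at 1. The 4 bp gap stands alone above (33.9-fold in L138F). Below, the 5 bp gap is the highest (35.9-fold in L138Y), followed by the 4 bp gap in both substitutions.

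The single elements were not all more frequent. A homeodomain site was in 17.6% of L138F and 16.1% of L138Y peaks with ALX4, against 19.3%, 19.1% and 16.97% in TWIST1(WT), so L138Y lay below and L138F inside the TWIST1(WT) range. An E-box was in 49.0% and 50.2% of peaks with ALX4, against 43.4%, 46.6% and 45.0%. The larger composite share of the substitutions was thus accompanied by a larger E-box share and not by a larger homeodomain site share.

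Seen from the genome, chromosomes 1 to 22 and X of hg38 hold 7513 composite motifs, and the substitutions with ALX4 covered more of them. L138F peaks covered 139 without ALX4 and 870 with it (11.6%, interval 10.9 to 12.3). L138Y peaks covered 115 and 634 (8.44%, 7.83 to 9.09). TWIST1(WT) with ALX4 covered 381, 566 and 665 (5.07%, 7.53% and 8.85%), so L138Y fell inside the range of TWIST1(WT) when lists of unequal length were used. At 10000 peaks per list the shares were 4.90% in L138F and 4.19% in L138Y, against 2.94%, 3.18% and 2.41%.

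Of 5840 double E-boxes, L138F peaks without ALX4 covered 924 (15.8%) and L138Y peaks 869 (14.9%). With ALX4 these numbers were 290 and 302. TWIST1(WT) covered 425, 344 and 693 without ALX4 (7.28%, 5.89% and 11.9%). At 10000 peaks the values without ALX4 were 7.47% in L138F and 6.49% in L138Y, and 4.08% to 4.09% in TWIST1(WT).

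**Figure D3:**
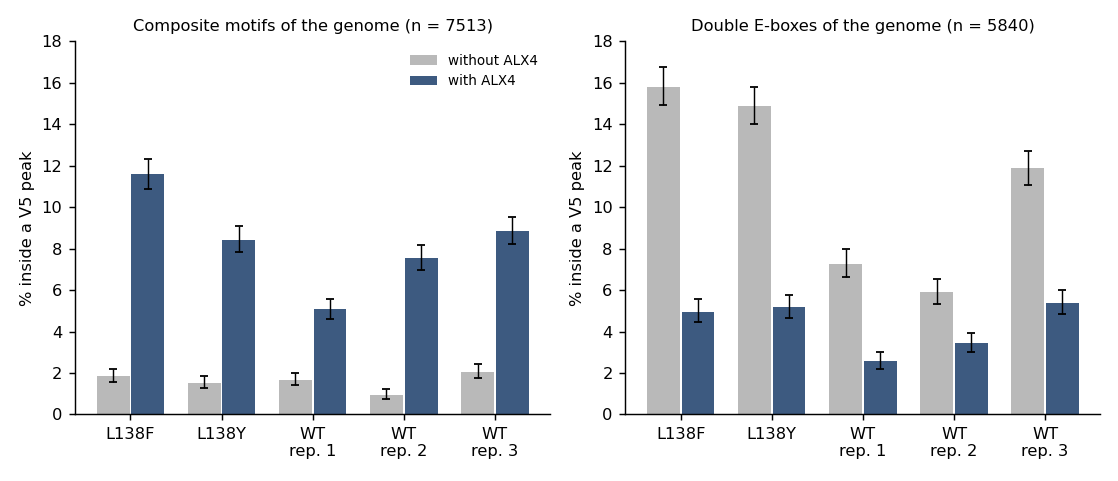
Share of all composite motifs and all double E-boxes of the genome that lay inside a V5 peak (y axis, %), without (grey) and with ALX4 (blue), with 95% Wilson intervals. L138F with ALX4 covered 11.6% of composite motifs and L138F without ALX4 15.8% of double E-boxes, while longer TWIST1(WT) lists covered more than shorter ones.

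Coverage differed with the letters of the composite motif, in the same order in both substitutions. By E-box, composites with CAGCTG were covered most often with ALX4 (19.6% in L138F, 14.9% in L138Y). CATCTG followed (15.3% and 10.9%), then CAGATG (9.0% and 6.67%) and CATATG (4.39% and 2.79%). By homeodomain site read in the direction E-box to homeodomain site, CAATTA was covered most (19.1% and 14.01%), then TAATTA (11.6% and 8.44%) and TAATTG (3.82% and 2.68%). The 3 TWIST1(WT) replicates had the same order of homeodomain sites and of E-boxes. For composites ending in TAATTG the substitutions did not exceed TWIST1(WT), which covered 2.91%, 3.77% and 3.91%.

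The 4 letters of the gap were also uneven among covered composites. An A stood at the first gap position, counted from the E-box, in 12.1% of covered composites in L138F and 10.9% in L138Y, against 26.2% of all 7513 composites. At the fourth gap position a C stood in 35.4% and 36.3%, against 21.2% of all. TWIST1(WT) showed the first in 15.0%, 14.3% and 13.7% and the second in 29.9%, 33.7% and 34.1%. These sequences gave the most sites gained with ALX4 in both substitutions (E-box and homeodomain site in capitals).
19 gained sites: CAGCTGtgacCAATTA
17 gained sites: CAGCTGcaacCAATTA
11 gained sites: CATCTGcattCAATTA
The first occurs 96 times in the genome and lay in a peak with ALX4 at 43 places in L138F and 26 in L138Y, against 9, 18 and 25 in TWIST1(WT). It is the core of the MAP3K7 and SDK1 sites shown above. The second occurs 62 times and was covered at 29 places in L138F and 26 in L138Y.

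Sites that appeared with ALX4 were about as many as those shared with the list without it, or more. A site was called gained when a peak with ALX4 overlapped no peak without ALX4 of the same protein by at least 1 bp, lost in the reverse case and kept otherwise. L138F gained 26927 sites, 56.8% of its list with ALX4, and L138Y 18059, 49.8% of its list. The TWIST1(WT) replicates gained 60.1%, 68.7% and 55.7%, a range that holds L138F and lies above L138Y. L138F lost 24851 sites (54.7% of its list without ALX4) and L138Y 28397 (61.0%), against 61.6%, 42.5% and 48.9%. The TWIST1(WT) values compare lists of the same replicate number, and over all 9 pairs they ranged from 49.8% to 74.4% for gained and from 26.1% to 73.0% for lost sites. About as many sites thus disappeared as appeared in L138F, and more disappeared in L138Y.

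Gained sites carried the composite motif in 2.06% of cases in L138F (interval 1.90 to 2.24) and 2.23% in L138Y (2.02 to 2.45), against 0.978%, 1.26% and 1.03% in TWIST1(WT) (0.884% to 1.41% over all 9 pairs). Kept sites carried it in 0.606% and 0.483%, and lost sites in 0.0241% and 0.0247% (6 and 7 peaks). Lost sites carried the double E-box in 2.29% and 1.73%, and gained sites in 0.137% and 0.199%. In TWIST1(WT) lost sites carried it in 1.17%, 1.80% and 1.29%, a range that holds L138Y, and gained sites in 0.113%, 0.137% and 0.127%. Kept sites were near promoters more often, with 35.9% in L138F and 34.7% in L138Y within 1000 bp of the start of a protein-coding gene. For gained sites this was 10.8% and 15.6%.

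The substitutions shared 8792 gained sites, 32.7% of those of L138F and 48.8% of those of L138Y. With the 10000 strongest gained peaks of each, the overlap was 49.4%, against 36.7% to 44.5% between pairs of TWIST1(WT) replicates. L138F paired with a TWIST1(WT) replicate gave 35.6% to 44.6% and L138Y 31.8% to 39.8%. For the 9000 strongest lost peaks the overlap of L138F and L138Y was 35.98%, against 19.4% to 24.9% between TWIST1(WT) replicates. Pairs of a substitution and a TWIST1(WT) replicate gave 19.8% to 30.2%, which reaches above the range of TWIST1(WT) pairs. At these equal sizes the lists of the substitutions overlapped by more than those of any pair of TWIST1(WT) replicates. The 10000 strongest peaks overlapped by 66.6% without ALX4 and 70.4% with it, against 53.0% to 59.8% and 60.1% to 67.8% between TWIST1(WT) replicates. L138F with a TWIST1(WT) replicate gave 53.8% to 63.1% and 58.4% to 66.3%, and L138Y 51.2% to 60.4% and 54.1% to 63.6%. With all peaks the separation was small or absent except for lost sites. L138F and L138Y then overlapped by 60.5% without ALX4, 63.98% with it, 40.7% for gained and 34.8% for lost sites (mean of both shares). In the same order the highest TWIST1(WT) pair gave 59.8%, 63.5%, 40.01% and 28.02%. L138F with TWIST1(WT) replicate 3 gave 61.8%, 63.87%, 39.96% and 31.2%. The peaks of replicate 1 were wider (median 630 and 659 bp, against 458 to 500 bp in the other lists).

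Of the 8792 sites gained in both substitutions, 331 (3.76%, interval 3.39 to 4.18) held the composite motif and 3811 (43.3%, 42.3 to 44.4) overlapped an hCNCC TWIST1 site. Sites gained in L138F and absent from the L138Y list with ALX4 numbered 16131, with 1.27% and 21.5%. Sites gained in L138Y and absent from the L138F list with ALX4 numbered 6448, with 0.729% and 10.8%. They were weaker peaks, with a median percentile of 30.9 and 22.3 in their own lists, against 69.1 in the L138F list for the sites gained in both. The 9239 sites lost in both held no composite motif, a count of 0 that allows a share of up to 0.0325% (3 counts), and the double E-box in 3.49%.

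Most sites gained in both were also seen with TWIST1(WT) and ALX4. There were 3581 in all 3 TWIST1(WT) lists with ALX4, 2528 in 2, 1708 in 1 and 975 in none. The composite motif was in 3.16% of the first group (interval 2.63 to 3.78), 3.56% and 4.57% of the next, and 5.13% (3.91 to 6.70) of the last. The hCNCC overlap ran the other way, from 51.1% to 33.6%. Sites in fewer TWIST1(WT) lists were weaker peaks, at a median percentile of 80.7 in the L138F list for the first group and 48.3 for the last.

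A total of 856 sites (9.74%) were gained in both substitutions and overlapped no peak of any of the 6 TWIST1(WT) lists. The composite motif was in 48 of them (5.61%) and an hCNCC TWIST1 site overlapped 307 (35.9%). Of the 856, 260 (30.4%) overlapped a peak in at least 1 of 22 V5 lists of other TWIST1 variants, so absence from the TWIST1(WT) lists did not mean absence from all other lists. Only 20 sites were in all 4 substitution lists and in no TWIST1(WT) list, and all 20 were in at least 1 of those 22 lists. Of the 6 highest-ranked of the 856, 1 held the composite motif and 4 overlapped an hCNCC TWIST1 site. The first and the second in rank did neither. The third and the fourth are shown by sequence, picked for their letters and gene (hg38, plus strand, matched motifs in capitals).
LPAR1 site, chr9:111158518-111158547: tcaggcaCATCTGaaatCAATTAcagccgc
PAX3 site, chr2:222127854-222127882: gtcctgctccTAATTGgaaacaggccgtg
The PAX3 site lay 170791 bp downstream of the start of PAX3, a homeodomain factor of the neural crest, and overlapped an hCNCC TWIST1 site. Its fold enrichment with ALX4 was 10.2 in L138F and 12.0 in L138Y. The LPAR1 site, 120089 bp upstream of a lysophosphatidic acid receptor gene, held the composite motif and also overlapped an hCNCC site, at 10.1 and 12.2.

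In reverse, 5317 sites were gained in all 3 TWIST1(WT) replicates (lists of the same number), and 3009 of them (56.6%) were peaks with ALX4 in both substitutions. Another 1149 were in L138F alone, 231 in L138Y alone and 928 (17.5%) in neither. Of the 104 with the composite motif, 91 (87.5%) were in both. The 928 in neither held it in 4 cases (0.431%).

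Sites without a match were common. Among the 8792 sites gained in both, 3389 held an E-box without a homeodomain site, 1147 a homeodomain site without an E-box, 1252 both and 3004 (34.2%) neither. The hCNCC overlap was 57.7% with both elements, 53.4% with an E-box alone, 36.7% with a homeodomain site alone and 28.5% with neither. A looser form of the composite motif, an E-box and ATTA 6 bp apart, chosen after the data were seen, was in 11.1% of the 8792.

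The TWIST1 sites of hCNCC show where the protein binds in cells that carry it naturally. These cells were derived from the H9 human embryonic stem cell line, and their reference set was 42318 TWIST1 peaks found in both replicates of wild-type cells before treatment, of which 1148 (2.71%) held the composite motif. The share of V5 peaks overlapping the set was 17.7% without and 29.8% with ALX4 in L138F, and 15.6% and 30.3% in L138Y. In TWIST1(WT) it was 21.7%, 23.7% and 15.7% without and 30.4%, 27.5% and 21.8% with ALX4. L138F and L138Y with ALX4 were inside the TWIST1(WT) range, and both began low in it or below it.

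The difference with minus without ALX4 was 12.1 points in L138F (interval 11.6 to 12.7) and 14.7 in L138Y (14.1 to 15.3), against 8.70, 3.75 and 6.10 points in TWIST1(WT) between lists of the same replicate number. The means differed by 7.23 points (exact two-sided permutation p = 0.20, the smallest possible, 0.42 adjusted). This separation rested on the numbers, which did not pair the lists: over all 9 pairs the TWIST1(WT) difference ranged from −1.99 to 14.7 points, a range that holds both substitutions. Among the 10000 strongest peaks, the overlap with ALX4 was 59.6% in L138F and 53.8% in L138Y, against 49.8%, 50.1% and 48.1%. Within TWIST1(WT) the difference of 6.18 ± 2.48 points (SD, n = 3) had an exact permutation p of 0.20.

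Of the 1148 hCNCC sites with the composite motif, L138F peaks covered 125 without ALX4 and 544 with it (47.4%, interval 44.5 to 50.3). L138Y peaks covered 92 and 412 (35.9%, 33.2 to 38.7). TWIST1(WT) peaks with ALX4 covered 265, 372 and 430 (23.1%, 32.4% and 37.5%). L138F lay above that range and L138Y inside it, and with 10000 peaks per list both lay above it, at 24.7% and 21.6% against 15.1%, 16.7% and 12.6%. Of 385 hCNCC sites with the double E-box and no composite motif, L138F covered 223 without ALX4 and 120 with it, and L138Y 209 and 130.

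A second readout of these positions in hCNCC was H3K27ac, a histone mark of active enhancers and promoters. The cells were TWIST1FV hCNCC, H9-derived cells with a degradable tag on endogenous TWIST1, given dTAGV-1, a compound that triggers its degradation, for 3 h, with 2 libraries at 0 h and 2 at 3 h. They carry no L138 substitution, so they bear on the positions and not on the proteins. Of 103380 tested H3K27ac peaks, 5512 (5.33%) were called lower and 1075 (1.04%) higher at 3 h (edgeR quasi-likelihood test, Benjamini-Hochberg FDR 0.05), 6.37% in all.

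After 3 h of dTAGV-1, H3K27ac was lower at many of the sites that both substitutions gained with ALX4. Untagged cells given the compound were not compared, so an effect of the compound or of time apart from TWIST1 loss was not tested. Of 4230 tested H3K27ac peaks at those sites, 726 (17.2%) were called lower and 9 higher, with a median log2 fold change of −0.48. At those that overlapped hCNCC TWIST1 sites, 724 of 3116 (23.2%) were called lower, with a median of −0.75. With the composite motif these were 38 of 196 (19.4%) and none higher, with a median of −0.81. At sites gained in both and in no TWIST1(WT) list, 40 of 258 (15.5%) were called lower.

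Sites kept or lost in both substitutions had smaller shares of such calls. At kept sites 297 of 9493 (3.13%) were called lower, with a median of 0.12, and at lost sites 52 of 2554 (2.04%), with a median of 0.15. Restricting to hCNCC TWIST1 sites gave 5.73% of 5111 at kept and 6.96% of 647 at lost sites. Over all hCNCC TWIST1 sites 14.5% of 36173 were called lower, with a median of −0.50, and at hCNCC TWIST1 sites in no substitution list 15.0% of 20014, with a median of −0.63. By median, the fall over all sites gained in both (−0.48), with or without hCNCC overlap, was not larger than at TWIST1 sites that neither substitution covered. At the sites gained in both that overlapped hCNCC TWIST1 sites, the median fall given above was larger than at those uncovered sites. Sites gained in L138F and absent from L138Y with ALX4 gave 10.8% of 4979, and sites gained in L138Y and absent from L138F with ALX4 gave 3.99% of 1781. The differences between these groups of sites were not tested, since neighbouring peaks are not replicates.

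The median H3K27ac level at sites gained in both was 2.81 and 2.77 CPM (counts scaled to the size of the library) in the 0 h libraries and 2.00 and 1.87 CPM in the 3 h libraries. At kept sites it was 6.33 and 6.47 at 0 h and 6.13 and 6.68 at 3 h. Both 3 h libraries were thus below both 0 h libraries at gained sites, and the groups overlapped at kept sites. The number of calls rested on the 0 h libraries: without 0 h replicate 2, 287 peaks were called in all and 59 lower at sites gained in both, with a median of −0.54, and without 0 h replicate 1 these were 3909 and 431, with a median of −0.44.

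**Figure D4:**
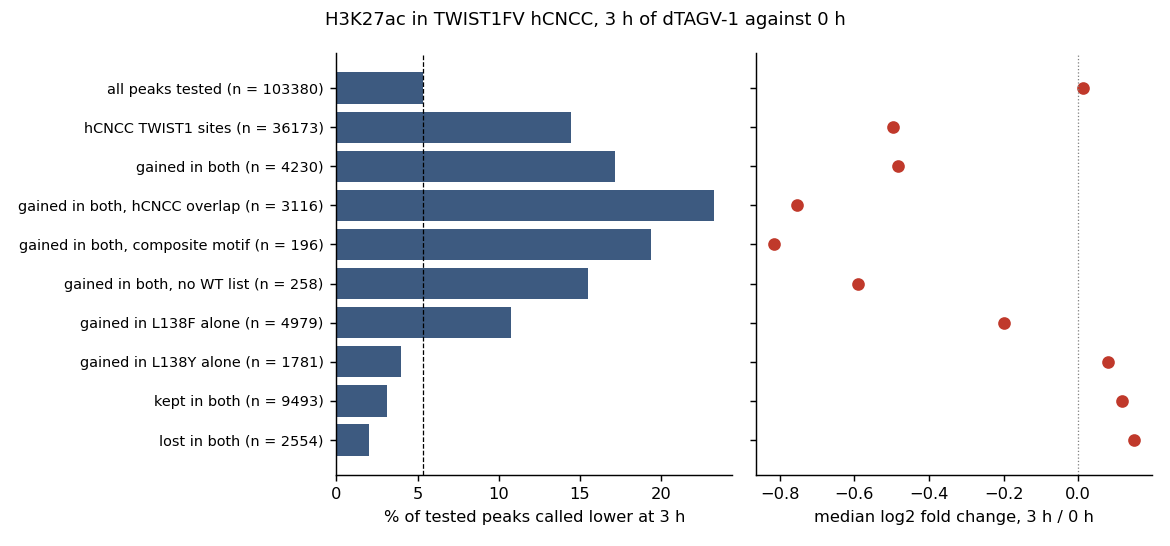
H3K27ac in TWIST1FV hCNCC after 3 h of dTAGV-1 against 0 h (2 libraries each) at groups of sites. The left panel gives the share of tested peaks called lower by edgeR (x axis, %, dashed line at 5.33% for all peaks tested), the right panel the median log2 fold change (x axis), with the number of tested peaks beside each group. Sites gained in both substitutions lie above the line (17.2%) and kept and lost sites below it (3.13% and 2.04%).

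At the 10 composite sites described first, H3K27ac was called lower at 2. At the SMIM36 site it was 72.8 and 73.3 CPM at 0 h and 19.5 and 25.9 at 3 h, a log2 fold change of −1.70 (SE 0.19, edgeR adjusted p = 0.000214). At the NTN1 site it was 18.6 and 12.3 at 0 h and 5.20 and 2.54 at 3 h, a log2 fold change of −1.99 (SE 0.39, edgeR adjusted p = 0.00780). At both sites the libraries of the 2 times did not overlap. Levels at the SOX9 site overlapped between the times, with 37.1 and 28.8 CPM before treatment and 34.8 and 21.9 CPM after 3 h (log2 fold change −0.22, SE 0.26, edgeR adjusted p = 0.707). The other 7 sites had log2 fold changes from −1.70 to −0.77 and were not called, although their libraries of the 2 times did not overlap either.

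Genes were assigned by the nearest start of a protein-coding gene. Of 19676 such genes, 5074 (25.8%) were nearest to at least 1 of the 8792 sites gained in both. AUTS2 had the most, with 17, followed by ADGRL2 with 16, and CDH2 and SOX9 with 14 each. CDH2 encodes N-cadherin, which mesenchymal cells carry. For SOX9, 10 of the 14 sites overlapped hCNCC TWIST1 sites and 2 held the composite motif. JARID2, a partner of the Polycomb complex, had 12 sites, 9 of them hCNCC sites, and EPHA7, an ephrin receptor, had 12 with 8. Genes in wide intergenic regions collect more sites by this rule, and gene spacing was not adjusted for.

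In 8 of the 9 listed gene groups a larger share of genes had a site gained in both than among all genes, and the same 8 also had larger shares with a lost site and with a kept site. Among 34 neural crest factors 25 (73.5%) had at least 1 gained site, 25 a lost site and 27 a kept site, against 25.8%, 27.1% and 37.6% of all genes. They included SOX5 with 9 sites, and NR2F2 with 12 and NR2F1 with 7, the last 2 being nuclear receptors of craniofacial development.

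Of 34 craniofacial homeodomain factors 22 (64.7%) had a gained site and 17 a lost one. MEIS1 had 13, PAX3 and TGIF1 4 each, and LHX8 2. Of 22 bHLH partners and inhibitors 15 (68.2%) had a gained site and 11 a lost one. ID4, which sequesters E-proteins, had 6 gained sites, TCF4, an E-protein, had 6 and HAND2 had 3. Of 28 craniosynostosis genes 14 (50.0%) had a gained site and 11 a lost one. GLI3, a hedgehog pathway factor, had 6 gained sites, and TWIST1 itself 2, both overlapping hCNCC TWIST1 sites.

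Among 51 BMP, WNT, hedgehog and PDGF signalling genes 31 (60.8%) had a gained site and 32 a lost one. BMPR1B, a BMP receptor, had 8 gained sites, FZD1, a WNT receptor, had 7, and WNT5A, a WNT ligand, had 6. Of 40 collagen and matrix genes 26 (65.0%) had a gained site and 19 a lost one. COL1A2 had 6 gained sites and the proteoglycan genes VCAN and DCN had 3 each. Of 42 EMT regulators and cadherins 20 (47.6%) had a gained site and 24 a lost one, with CDH9 at 7 gained sites and ZEB2 at 4.

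The group closest to the origin of HEK293, the 28 kidney development factors, had a gained site at 18 genes (64.3%), a lost one at 20 and a kept one at 22. MECOM had 8 gained sites and GDNF 4. Of 34 neuronal factors 5 (14.7%) had a gained site, below the 25.8% of all genes, 6 had a lost site and 15 (44.1%) had a kept site. ISL1, a homeodomain factor of motor neurons, held 8 of the 13 gained sites of this group. The gene groups were given counts only.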

How the data were processed

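The authors deposited 1 list of ChIP-seq peaks per library, in narrowPeak form on hg38 per the labels. Each peak has −log10 p and −log10 q values, a fold enrichment ratio at the summit, a summit position and a score, which in the deposited values is 10 times −log10 q rounded down. The smallest deposited −log10 q was 1.30 in the lists used. Bowtie2 2.4.1, MACS2 2.2.7.1 (a peak caller), SAMtools 1.10 and deepTools 3.5.0 are named in the submitters' processing notes, with no role or order. How the peak caller was set to treat its control, repeats and low-quality reads was not given in the sources used here. H3K27ac was deposited as counts per merged peak: 213151 peaks, with 7313035 and 8817125 counts at 0 h and 7163998 and 7480128 at 3 h. Between 76.7% and 79.2% of counts of 20 or more were even, as where both mates of a pair are counted, so those counts are not independent reads. A mouse spike-in was not used.

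Repeated intervals with several summits were reduced to the summit of highest −log10 p. Motifs were counted in the 100 bp to either side of each summit and in windows 1000 bp to either side. Overlap required 1 bp. Gene starts were those of GENCODE 44. H3K27ac peaks passing filterByExpr were tested with edgeR 4.0.16 (TMM scaling, quasi-likelihood, FDR 0.05), with DESeq2 1.42.0 as an alternative. Levels are CPM of the TMM-scaled library, computed from the deposited counts. The overlap, motif and count steps were tested on simulated data. Other steps used Python 3.11.15, pysam 0.24.0 and SciPy 1.17.1.

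Named sites, never on chromosome 8, were the 10 gained in both substitutions with the composite motif and the best mean rank of −log10 p, the 6 so ranked that overlap no TWIST1(WT) list, the 4 best ranked lost in both, and the 4 best ranked in all 4 substitution lists and no TWIST1(WT) list. Some of these sequences and genes are not reported here. Sites of the last 3 groups shown in the text were picked for their letters or gene after these were seen. The substitutions, gene lists and tests were chosen with earlier results of these data known. TWIST1(WT) replicate 1 has no number in its label.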

Additional observations from a re-analysis of the deposited data

Results flagged for a closer look

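The number of peaks moved in opposite directions with ALX4 in the 2 substitutions. The L138F list with ALX4 had 2006 peaks more than the list without it (47397 against 45391), and for L138Y the difference was −10292 (36276 against 46568). With 1 library per condition this difference was not tested, and between the TWIST1(WT) lists the same quantity ranged from −26584 to 42540 peaks over all 9 pairs of a list with and a list without ALX4, a range that holds both values.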

How the results depend on the processing

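Of 94 alternative values of 15 results, 56 were labelled unchanged and 38 moved beyond the limits set. None changed sign, which counts and shares cannot do. For results with an exact permutation p, unchanged meant only the same sign and p on the same side of 0.05. The smallest p possible there was 0.10 or more, so that label was fixed unless the sign changed and set no limit on size. Under it, the TWIST1(WT) difference in hCNCC overlap went from 6.18 to 16.6 points at 10000 peaks. The difference in composite share with minus without ALX4 in L138F and L138Y was 0.822 and 0.834 points with windows of 50 bp to either side, 1.63 and 1.66 with a −log10 q of at least 5, 2.96 and 2.54 at 10000 peaks, 0.495 and 0.504 with TAATTA only, and 4.11 and 3.81 with the looser motif chosen after the data were seen. The difference in hCNCC overlap was 9.88 and 10.8 points with 50% reciprocal overlap, 14.9 and 18.0 with a −log10 q of at least 5, 28.2 and 26.2 at 10000 peaks, 14.01 and 17.6 with hCNCC sites of either replicate, and 13.9 in L138Y with summits within 100 bp. At 10000 peaks, 6855 sites were gained in L138F, 6136 in L138Y and 3952 in both, fewer peaks being compared. The composite share of those 3952, of which 2170 (54.9%) overlap the 8792, was 5.24%. For the 8792 it was 2.47% with the shorter windows, 1.56% with TAATTA only and 11.1% with the looser motif. The hCNCC overlap of the sites gained in both under each setting was 32.5% with reciprocal overlap, 37.9% with summits, 49.4% with the stricter q and 68.4% at 10000 peaks, and that of the 8792 was 52.5% with either replicate.

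H3K27ac calls numbered 2158 with no filter (311 lower at sites gained in both), 5629 with DESeq2 (642) and 5984 with its size factors (659). Leaving out 1 library gave 287 to 8564 calls (59 to 802); the cause was not tested. Replicate numbers did not pair the TWIST1(WT) lists: deviations of same-numbered lists correlated at 0.0095, 0.0023 and −0.092 over 106862 sites. For H3K27ac the correlation was 0.126, from 2 pairs only, so pairing was not taken as shown. With a replicate block, 12440 H3K27ac peaks were called, 1067 of them lower at sites gained in both, and the TWIST1(WT) differences of 0.706 and 6.18 points each had an exact paired permutation p of 0.25, the smallest possible. Over the alternatives, exact p for the substitutions against TWIST1(WT) ranged from 0.20 to 0.333. Depths unknown from peak lists limit every comparison of list length and of presence or absence.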
